A study of Drosophila melanogaster with 15 samples.

Results

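The genes described here are the cytoplasmic ribosomal protein genes of Drosophila, chosen by symbol: every gene whose symbol begins with RpL, RpS or RpLP followed by a digit. The rule took 92 of the 15682 gene symbols counted. By symbol, 47 of them belong to the large ribosomal subunit, 37 to the small subunit and 3 (RpLP0, RpLP1 and RpLP2) to the stalk of the large subunit, and the symbols of 5 end in -like. Members lay on every large chromosome arm, with 19 on 2L, 21 on 2R, 14 on 3L, 23 on 3R and 14 on X, and RpS3A lay on chromosome 4. Ribosomal proteins encoded under other symbols, such as sta and Rack1, are outside the rule and are given separately.

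Cytoplasmic ribosomes are built from ribosomal RNA and a fixed set of proteins, which cells make in matched amounts, so that the mRNAs of these genes are among the most abundant in growing tissue. In Drosophila most of the proteins come from a single gene, and loss of a copy gives the Minute phenotype of slow growth and thin bristles. A few are encoded by duplicated genes, whose symbols end in a or b or, for some, in -like, and several of the duplicates are known chiefly from the germ line. Other genes with a symbol in -like are related to ribosome assembly factors. Larval body wall muscle grows by enlarging existing fibres, which demands a high rate of protein synthesis.

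RNA was sequenced from filleted larvae, a dissection that leaves mostly body wall muscle with its epidermis, in 5 genotypes with 3 biological replicates each. Every genotype carried the muscle driver Mef2-Gal4. Mef2>+ held no second transgene, Mef2>Deaf1 carried a transgene to overexpress the transcription factor Deaf1, and Mef2>Gsk3CA carried a transgene for constitutively active Gsk3. Mef2>whiteRNAi expressed a hairpin against the eye pigment gene w as the RNAi control, and Mef2>Deaf1RNAi expressed a hairpin against Deaf1. Each hairpin and transgene was a single stock, and the larval age was not given with the samples. The comparisons made were 4: Mef2>Deaf1RNAi against Mef2>whiteRNAi, Mef2>Deaf1 against Mef2>+, Mef2>Gsk3CA against Mef2>+, and the control Mef2>whiteRNAi against the control Mef2>+. The last 3 share the same Mef2>+ libraries, and the first and the last share the Mef2>whiteRNAi libraries, so their results are not independent of one another.

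Between 16186361 and 32756446 entries per library were counted on genes, with a median of 21438118. The sequencing was paired, and whether an entry is a read or a pair was not given, so that an entry is called a read here. Deaf1 was lower in Mef2>Deaf1RNAi than in Mef2>whiteRNAi (log2 fold change −0.87, standard error (SE) 0.10, adjusted p = 9.0e-04; edgeR quasi-likelihood F test, p-values adjusted by Benjamini-Hochberg), and w was lower in Mef2>whiteRNAi than in Mef2>+ (−1.48, SE 0.19, adjusted p = 9.9e-04). Deaf1 differed by 0.31 between Mef2>Deaf1 and Mef2>+ (SE 0.098, adjusted p = 0.058 with edgeR), short of the threshold of 0.05. Per 1e6 reads on genes, Deaf1 stood at 40.6, 41.4 and 47.7 in Mef2>Deaf1 and 35.7, 37.0 and 31.8 in Mef2>+. In the control Mef2>whiteRNAi it stood at 42.9, 43.8 and 38.7, which overlapped Mef2>Deaf1. The Gsk3 gene sgg was not called different where the label says Gsk3CA (log2 fold change 0.12, SE 0.24, adjusted p = 0.779 with edgeR). Per 1e6 reads on genes, sgg stood at 339, 335 and 526 in replicates 1 to 3 there, against 418, 433 and 254 in Mef2>+. Replicate 3 under that label had the highest value of any library, and the groups overlapped. Those samples are therefore called the libraries labelled Gsk3CA. The paper itself reports raised mRNA of Deaf1 and of Gsk3 when each was overexpressed. The summed level of 9 body wall muscle marker genes lay between 57609 and 89278 CPM, counts per 1e6 reads on genes, in Mef2>+, 15290 and 23375 in Mef2>Deaf1, 13027 and 38387 in Mef2>whiteRNAi, 55735 and 61231 in Mef2>Deaf1RNAi, and 34708 and 49639 where the label says Gsk3CA, and none of the 9 was at 0 in any library. The share of entries on no gene was 3.36 to 3.87% in Mef2>+ and 5.30 to 6.75% in the other genotypes. Both measures moved with comparisons against Mef2>+, the muscle markers also between Mef2>Deaf1RNAi and Mef2>whiteRNAi, and their part in the results was not tested. In such tissue samples, fewer cells of a type and less RNA per cell cannot be told apart. All CPM values were scaled by the trimmed mean of M-values (TMM), a factor per library that ran from 0.882 to 1.18.

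Nearly all members were among the most abundant mRNAs of the fillet. At a mean of at least 10 CPM over the 15 libraries there were 84 members, and the other 8 lay at 1.28 CPM or less, with no member between that level and the 15.5 CPM of RpLP0-like. Per kilobase of annotated exon, a scale on which genes of different length can be set side by side, the 84 had a median level of 976 CPM per kb and ran from 16.4 to 3708. The median of all 10793 genes tested that had an exon length was 6.74 CPM per kb. Of the 100 genes with the highest level per kb 41 were members, and of the highest 200 genes 77 were.

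**Figure D1:**
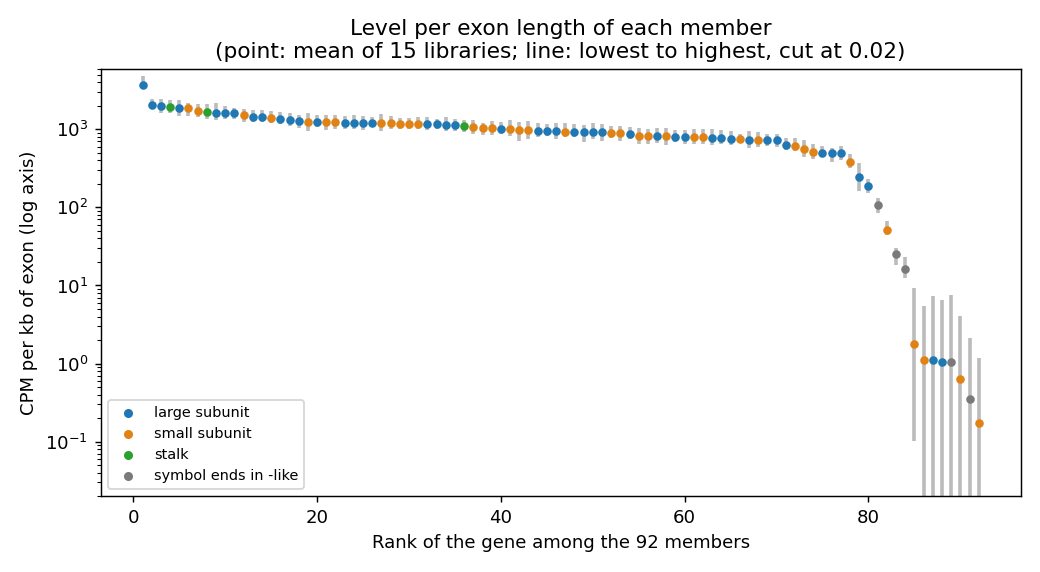
Mean level of each of the 92 members in CPM per kb of exon (log axis) against its rank, with lines from the lowest to the highest of the 15 libraries. The levels fall slowly from 3708 CPM per kb for RpL41 and drop sharply over the last ranks, where the 8 members under 10 CPM lie.

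RpL41, which encodes the shortest ribosomal protein, had the highest level, a mean of 3708 CPM per kb. RpL39, a short protein at the exit of the peptide tunnel, followed at 2055, RpL23 at 2005, the stalk protein RpLP1 at 1916 and RpL27A at 1864 CPM per kb. Longer genes of the annotation carry alternative exons that few reads may use, so a level per kb is a lower estimate for them. The lowest 5 were RpS28a at 0.173, RpS28-like at 0.354, RpS10a at 0.637, RpL22-like at 1.04 and RpL37b at 1.05 CPM per kb, all of them the minor copies of duplicated genes.

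The members varied little among libraries. The highest library was 1.5 times the lowest for the median of the 84 members at 10 CPM or more, with a range from 1.31 times for RpS14a to 2.23 times for RpL22. Within a genotype the median coefficient of variation over 3 replicates was 4.39% in Mef2>+, 3.38% in Mef2>Deaf1, 3.34% in Mef2>whiteRNAi and 3.39% in Mef2>Deaf1RNAi, and it was 9.28% in the libraries labelled Gsk3CA. The genotypes kept a common order in most members. Mef2>+ had the highest mean CPM for 83 of the 84, and Mef2>whiteRNAi had the lowest for 74, Mef2>Deaf1RNAi for 8 and the libraries labelled Gsk3CA for 2. Relative to Mef2>+, the median member stood at 87.6% in Mef2>Deaf1, 76.7% in Mef2>Deaf1RNAi, 72.9% in Mef2>whiteRNAi and 80.7% in those labelled Gsk3CA.

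The share of all reads on genes that fell on the 92 members gave a different order, because it is not TMM scaled. The share was 8.95, 8.80 and 8.72% in the Mef2>+ libraries, 8.58, 9.22 and 8.32% in Mef2>Deaf1. The libraries labelled Gsk3CA had 8.56, 8.31 and 8.50%. It was 7.15, 6.99 and 7.45% in Mef2>whiteRNAi and 6.27, 6.66 and 6.93% in Mef2>Deaf1RNAi. Both RNAi genotypes lay below every library of the other 3 genotypes, and Mef2>Deaf1 overlapped Mef2>+. Between the controls the genes of both subunits differed in the same direction: large subunit genes held 5.001 ± 0.065% of reads in Mef2>+ and 4.06 ± 0.13% in Mef2>whiteRNAi, and small subunit genes 3.37 ± 0.048% and 2.77 ± 0.095% (mean ± SD, n = 3).

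**Figure D2:**
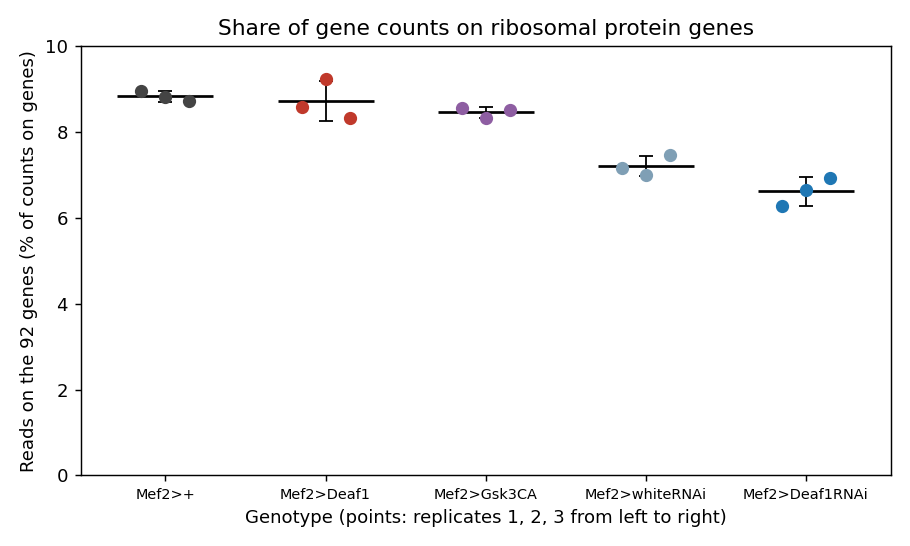
Percentage of the counts on genes that fell on the 92 ribosomal protein genes in each library (points), with the mean (line) and SD (bars) of the 3 replicates of each genotype. Mef2>whiteRNAi and Mef2>Deaf1RNAi libraries lie between 6.27 and 7.45%, below the 8.31 to 9.22% of the other genotypes.

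For tests, 89 of the 92 members passed the filter on low counts. RpS10a, RpS28a and RpS28-like did not, and RpL10Aa, RpL22-like and RpL37b passed only because of their counts in the libraries labelled Gsk3CA. The tests of single genes were run over all 10930 genes that passed.

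The widest difference in the members was between the 2 control genotypes. In Mef2>whiteRNAi 83 of the 89 members tested were lower than in Mef2>+ and none was higher (edgeR test, adjusted p under 0.05), where 10.2% of all genes tested were lower and 6.3% higher. These were 45 of 47 large subunit genes, 32 of 35 small subunit genes, all 3 stalk genes and 3 of 4 genes with a symbol in -like. The median log2 fold change of the 84 members at 10 CPM or more was −0.46, with quartiles of −0.50 and −0.42, against −0.02 for all genes tested and 0.01 for those at a mean of 10 CPM or more. In every one of the 84 each Mef2>whiteRNAi library lay below each Mef2>+ library, a separation seen for 18.5% of all genes tested.

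RpL22, a large subunit protein that binds ribosomal RNA at the solvent face, had the widest difference. Its level was 403, 319 and 339 CPM in Mef2>+ replicates 1 to 3 and 268, 218 and 183 CPM in Mef2>whiteRNAi, a log2 fold change of −0.66 (SE 0.15, adjusted p = 0.012 with edgeR). The groups did not overlap, and RpL22 had the widest range over all 15 libraries of the 84 members. In the BDGP6 annotation its exons overlap the non-coding gene lncRNA:CR42491 on the same strand, so part of its reads may have been left uncounted.

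RpL26 and RpL23A, which line the exit of the peptide tunnel, stood at 1123, 1102 and 1071 CPM and at 1576, 1521 and 1469 CPM in Mef2>+. In Mef2>whiteRNAi they stood at 688, 720 and 730 CPM and at 1001, 993 and 994 CPM. The replicates of each genotype were close together and the groups far apart, with log2 fold changes of −0.62 (SE 0.085, adjusted p = 0.0012 with edgeR) for RpL26 and −0.61 (SE 0.078, adjusted p = 9.1e-04) for RpL23A.

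The small subunit proteins RpS24 and RpS10b followed. RpS24 stood at 815, 779 and 761 CPM in Mef2>+ and 490, 527 and 558 CPM in the RNAi control (log2 fold change −0.58, SE 0.080, adjusted p = 0.0013 with edgeR). RpS10b, which sits near the entry of the mRNA channel, stood at 1141, 1046 and 983 CPM against 721, 706 and 696 CPM (log2 fold change −0.58, SE 0.080, adjusted p = 0.0013 with edgeR). Of the 84 members at 10 CPM or more RpS14a was the one that did not pass, with a log2 fold change of −0.26 (SE 0.095, adjusted p = 0.079 with edgeR). Fitted on these 6 libraries alone, 47 of 85 members tested were lower. Their median there was −0.45 on the log2 scale, against 0.04 for all genes. Leaving out 1 library at a time left between 60 and 80 members called. The share of all genes called in these fits is not given, so losses cannot be ascribed to the members. Beside the muscle markers, the summed level of 6 fat body genes was 2516 to 6875 CPM in Mef2>+ and 7099 to 10583 CPM in Mef2>whiteRNAi, and that of 3 hemocyte genes 657 to 949 CPM and 341 to 603 CPM. None of these genes was at 0, and their part in the members' difference was not tested.

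**Figure D3:**
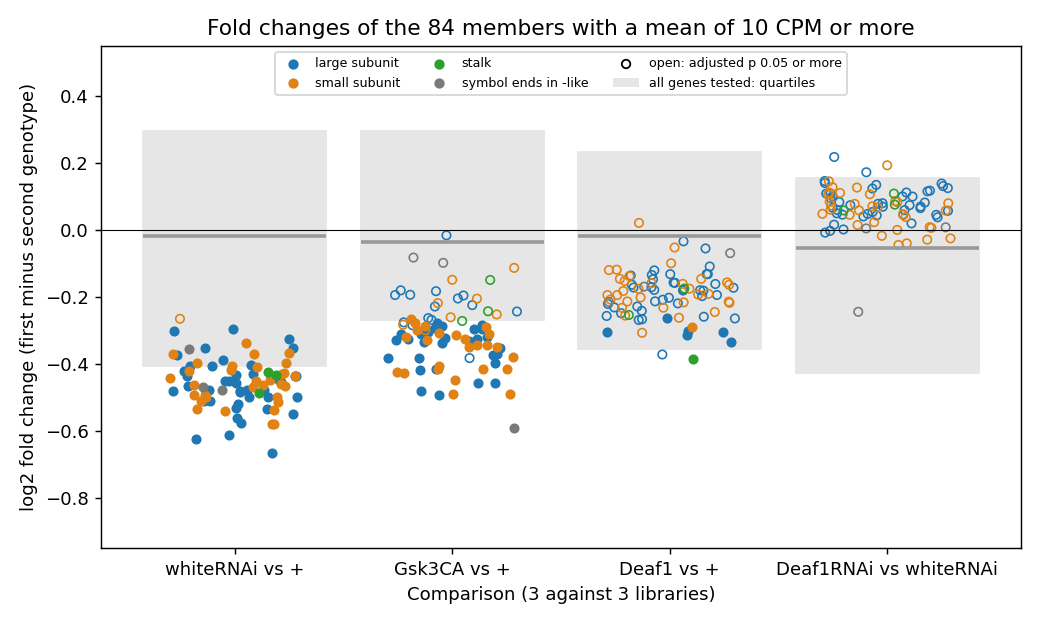
Log2 fold change (first minus second genotype) of the 84 members at 10 CPM or more in each of the 4 comparisons, with filled points for members at an adjusted p under 0.05 and grey boxes and lines for the quartiles and median of all genes tested. In the comparison of the 2 controls 83 points are filled and lie between −0.66 and −0.29, whereas no point is filled between Mef2>Deaf1RNAi and Mef2>whiteRNAi.

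In the libraries labelled Gsk3CA 55 of 89 members were lower than in Mef2>+ and RpS19b was higher (edgeR test, adjusted p under 0.05), where 14.1% of all genes tested passed, 8.87% lower and 5.19% higher. RpL22-like also passed as higher, but it entered the test only through these libraries and is not counted as a result. The lower members were 29 of 47 large subunit genes, 25 of 35 small subunit genes and RpLP0-like, and none of the 3 stalk genes passed. The median of the 84 members at 10 CPM or more was −0.31 on the log2 scale (quartiles −0.37 and −0.27), against −0.04 for all genes tested and −0.09 for those at a mean of 10 CPM or more. The libraries of the 2 genotypes did not overlap for 71 members, each lower in those labelled Gsk3CA, where 19.8% of all genes tested were. In the other direction RpS19b did not overlap, and neither did RpL10Aa, which entered the test only through these libraries, where 16.7% of all genes did not.

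The widest fall was in RpLP0-like, whose yeast relative is a ribosome assembly factor that holds the place of the stalk protein during assembly. Its level was 17.9, 19.2 and 21.7 CPM in Mef2>+, against 13.7, 13.2 and 12.1 CPM in those labelled Gsk3CA (log2 fold change −0.59, SE 0.099, adjusted p = 0.0044 with edgeR). RpLP0 itself stood at 1724, 1663 and 1766 CPM against 1383, 1340 and 1546 CPM, and did not pass. The groups did not overlap for either gene.

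RpL17, at the peptide tunnel, stood at 1136, 1107 and 1108 CPM in Mef2>+, against 771, 695 and 915 CPM in those labelled Gsk3CA. RpS9, a small subunit protein at the mRNA entry, stood at 1265, 1270 and 1192 CPM against 876, 725 and 1052 CPM, and RpS16, near the decoding centre, at 1213, 1218 and 1105 CPM against 828, 707 and 984 CPM. In these 3 genes replicate 2 of the libraries labelled Gsk3CA was lowest and replicate 3 highest, and every one of these libraries lay below Mef2>+. The log2 fold changes were −0.49 for each of RpL17, RpS9 and RpS16, with adjusted p between 0.0085 and 0.017 (edgeR).

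The count called in this comparison, 57 with both higher genes, depended on single libraries and on the scaling. It was 7 without replicate 1 and 10 without replicate 2 of the libraries labelled Gsk3CA, 9 without Mef2>+ replicate 1 and 14 without Mef2>+ replicate 2. Over the 6 fits that each left out 1 library it ran from 7 to 67. The number of all genes that passed in these fits is not given, so the counts cannot be read against all genes. Fitted on the 6 libraries alone, edgeR called none, with 39 members and 26.2% of all genes at an unadjusted p under 0.05. Scaling by library totals, which raised the median of all genes by 0.25, left 3 members lower, and over all genes it turned 567 higher and 969 lower into 1981 higher and 260 lower. The members stood 0.27 below the median of all genes on the log2 scale under either scaling.

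In Mef2>Deaf1 8 of 89 members were lower than in Mef2>+ and none was higher (edgeR test, adjusted p under 0.05), where 7.38% of all genes tested were lower and 5.06% higher. The share of members called, 8.99%, was close to or below that of all genes, 12.4% in either direction. The direction was more uniform than the calls: 83 of the 84 members at 10 CPM or more had a negative log2 fold change. The libraries of the 2 genotypes did not overlap for 72, all lower in Mef2>Deaf1, where 17.4% of all genes tested were lower without overlap. The median of the 84 members at 10 CPM or more was −0.19 (quartiles −0.23 and −0.16), against −0.02 for all genes tested and 0.02 for those at a mean of 10 CPM or more. At an unadjusted p under 0.05 (edgeR) there were 42 of these 84 members, all lower, where 14% of all genes tested were lower.

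The widest fall was in RpLP2, an acidic stalk protein that recruits the translation factors to the ribosome. It stood at 1287, 1243 and 1164 CPM in Mef2>+ and 938, 980 and 911 CPM in Mef2>Deaf1, a log2 fold change of −0.39 (SE 0.088, adjusted p = 0.014 with edgeR). Among the other 7 were 6 with log2 fold changes from −0.31 to −0.26 and adjusted p from 0.024 to 0.049 (edgeR). They were RpL3, a protein that reaches into the peptidyl transferase centre (2696, 2635 and 2573 CPM against 2120, 2094 and 2152 CPM), RpL24, RpL23A, RpL13, RpL35 and, of the small subunit, RpS24. The groups did not overlap for any of the 8. RpS24 stood at 815, 779 and 761 CPM against 667, 644 and 618 CPM, and RpL23A at 1576, 1521 and 1469 CPM against 1236, 1294 and 1168 CPM.

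The calls in Mef2>Deaf1 rested on every library, since leaving out any one of the 6 left 0 or 1 member called. The test decided the count as well: DESeq2 called 56 members lower, 30 were lower when each gene had to have 10 counts in every library, and scaling by library totals, with a median of −0.02 for the members and 0.15 for all genes, left none. With DESeq2 the median of the members tested was −0.20 on the log2 scale, against −0.02 for all genes. How many of all genes passed under these settings is not given here, so the counts cannot be read against all genes.

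Between Mef2>Deaf1RNAi and Mef2>whiteRNAi no member passed an adjusted p of 0.05 with the edgeR test. Of all genes tested 8.81% did, with 5.48% of all genes tested higher and 3.33% lower. At an unadjusted p under 0.05 there were 3 members, where 24.7% of all genes tested passed, and DESeq2 called 6 higher and limma voom none. The share of all genes that DESeq2 or limma voom called is not given here. The median of the 84 members at 10 CPM or more was 0.07 on the log2 scale (quartiles 0.04 and 0.11), against −0.05 for all genes tested and 0.03 for the 5139 tested genes at a mean of 10 CPM or more. The libraries did not overlap for 29 members that were higher in Mef2>Deaf1RNAi, where 14.9% of all genes tested were higher without overlap. RpS19b and RpS5b, both below 10 CPM, were lower without overlap, where 16% of all genes tested were. So was RpL22-like, which entered the test only through the libraries labelled Gsk3CA. The summed muscle markers, at 55735 to 61231 CPM in Mef2>Deaf1RNAi and 13027 to 38387 CPM in Mef2>whiteRNAi, differed without overlap in this comparison too. So did the 7 midgut genes, at 3.62 to 4.75 CPM and 37.9 to 356 CPM. The 6 fat body genes, at 2784 to 4850 CPM and 7099 to 10583 CPM, did not overlap either. The same held for 16 testis genes, at 28.8 to 30.1 CPM and 16.04 to 25.7 CPM, with up to 6 at 0 in a library. The part of any of these lists was not tested. The direction of the members turns with the scaling: by library totals the median member stood at −0.13 and the median of all genes at −0.25, which is the same distance of 0.12 from all genes as with TMM.

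The 3 members under an unadjusted p of 0.05 are named here after their values were seen. RpL23, a protein of the intersubunit face of the large subunit, stood at 878, 952 and 910 CPM in Mef2>whiteRNAi and 1040, 1074 and 1075 CPM in Mef2>Deaf1RNAi (log2 fold change 0.22, SE 0.076, adjusted p = 0.099 with edgeR). RpS10b stood at 721, 706 and 696 CPM against 785, 826 and 817 CPM (0.19, SE 0.080, adjusted p = 0.16 with edgeR). Neither gene overlapped between the groups. RpLP0-like stood at 13.8, 15.7 and 16.4 CPM against 13.99, 12.0 and 12.8 CPM, and its groups overlapped (−0.24, SE 0.099, adjusted p = 0.15 with edgeR).

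Which control a genotype was set against decided the direction of the members. Against Mef2>whiteRNAi in place of Mef2>+, alternatives chosen after seeing the data, 19 of 89 members were higher in Mef2>Deaf1, where 3.73% of all genes were, and none was lower. In the libraries labelled Gsk3CA 15 were higher and none was lower, a share below the 19.1% of all genes that were higher. Against Mef2>+ in place of Mef2>whiteRNAi, 70 members were lower in Mef2>Deaf1RNAi and none was higher, where 4.9% of all genes were lower. In CPM, the 84 members' medians in Mef2>Deaf1 and the libraries labelled Gsk3CA thus lay between those of the 2 controls.

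Duplicated genes were compared within each pair by the share of the pair's reads on the minor copy. Genes with a symbol in -like were paired with their namesakes in the same way, those related to assembly factors included. In 6 pairs both copies were at 10 CPM or more. RpS14a and RpS14b, which lie next to each other on the X chromosome and encode the same protein of the small subunit platform, were the most evenly used. RpS14b took 27.2 to 27.4% of the pair's reads in Mef2>+, 25.4 to 26.6% in Mef2>Deaf1, 23.0 to 24.7% where the label says Gsk3CA, 23.8 to 25.5% in Mef2>whiteRNAi and 24.0 to 25.6% in Mef2>Deaf1RNAi. The share was thus lower in every library of the other genotypes than in Mef2>+, and the 2 RNAi genotypes overlapped.

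The copies accordingly differed in their tests. RpS14b stood at 287, 284 and 261 CPM in Mef2>+, while the libraries labelled Gsk3CA had 203, 190 and 227 CPM and the Mef2>whiteRNAi libraries 208, 199 and 197 CPM, with log2 fold changes of −0.42 (adjusted p = 0.0050 with edgeR) and −0.46 (adjusted p = 0.0027). RpS14a stood at 760, 758 and 699 CPM, 661, 580 and 761 CPM, and 607, 637 and 601 CPM in the same genotypes, with log2 fold changes of −0.15 (adjusted p = 0.30 with edgeR) and −0.26 (adjusted p = 0.079). The share itself gave p = 0.1 in each of the 3 comparisons with Mef2>+ by an exact permutation test (two-sided). That is the smallest value that 3 against 3 libraries allow. Among the 24 permutation tests of 6 pairs the smallest p after Benjamini-Hochberg adjustment was 0.3. The copies are nearly identical, and reads that align to both were left out of the counts, so the split rests on the reads that tell them apart.

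In the other pairs with 2 expressed copies the minor copy took a smaller share. RpL34a took 17.9 to 21.3% of the reads of RpL34b and RpL34a over all 15 libraries, and RpS15Ab took 3.16 to 4.29% of those of RpS15Aa and RpS15Ab, with every comparison overlapping. RpL24-like, whose yeast relative is an assembly factor that RpL24 later replaces, took 9.01 to 9.31% of its pair in Mef2>+, 9.46 to 10.5% in Mef2>Deaf1 and 9.80 to 10.2% in the libraries labelled Gsk3CA. RpL7-like, also related to a yeast assembly factor, took 3.39 to 3.60%, 3.88 to 4.01% and 4.04 to 4.14% of its pair in the same genotypes. In the BDGP6 annotation nearly all of the RpL7-like exon sequence (1771 of 1793 bases) overlaps CG34164 on the same strand, so its share depends on reads that may have been ambiguous. In both genotypes RpL24-like and RpL7-like took a larger share than in Mef2>+ without overlap (two-sided exact permutation test, p = 0.1, the smallest possible), and their own levels in CPM were not called different in either genotype. RpLP0-like took 1.02 to 1.21% of its pair in Mef2>+ and 0.778 to 0.979% where the label says Gsk3CA, also without overlap (two-sided exact permutation test, p = 0.1).

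The 8 members below 10 CPM, RpL10Aa, RpL22-like, RpL37b, RpS5b, RpS10a, RpS19b, RpS28a and RpS28-like, were minor copies, several of them known from the germ line and RpL22-like from the testis. Summed, they stood at 0.563, 0.472 and 4.87 CPM in Mef2>+, 0.397, 0.971 and 1.93 CPM in Mef2>Deaf1, 1.9997, 1.23 and 1.02 CPM in Mef2>whiteRNAi, and 0.384, 0.693 and 0.636 CPM in Mef2>Deaf1RNAi. In the libraries labelled Gsk3CA they stood at 28.0, 32.8 and 5.03 CPM. Replicates 1 and 2 of these libraries were far above all others, and replicate 3 was at the level of Mef2>+ replicate 3.

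RpL22-like stood at 7.63, 9.33 and 0.752 CPM where the label says Gsk3CA, against 0.205, 0 and 0.941 CPM in Mef2>+, where replicate 3 overlapped. It passed the filter on low counts only through these libraries, so its values are a description and no test is given. RpS19b stood at 4.85, 6.20 and 1.27 CPM against 0.256, 0.0675 and 0.720 CPM, without overlap (3.53, SE 0.72, adjusted p = 0.012 with edgeR), and 4 of 16 alternatives lost the call. Without Mef2>+ replicate 1 the adjusted p of RpS19b was 0.053 (edgeR).

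In the others too, replicates 1 and 2 of the libraries labelled Gsk3CA were the highest, while replicate 3 lay above or below Mef2>+ replicate 3 depending on the gene. RpL10Aa, a copy of RpL10Ab, stood at 4.62, 5.81 and 1.36 CPM in those labelled Gsk3CA, against 0, 0 and 0.775 CPM in Mef2>+, and it had no read in any Mef2>whiteRNAi or Mef2>Deaf1RNAi library, which allows up to 0.0382 and 0.0550 CPM over each group (a limit of 3 counts, for counting error only). RpS5b stood at 4.85, 5.17 and 0.846 CPM against 0, 0.337 and 1.44 CPM, RpL37b at 2.75, 2.74 and 0.376 CPM against 0.0512, 0 and 0.664 CPM, and RpS10a at 2.43, 2.39 and 0.235 CPM against 0.0512, 0.0675 and 0.111 CPM. RpS28-like and RpS28a had 50 and 19 reads in all in the libraries labelled Gsk3CA and 2 each in Mef2>+. Against the major copies these levels were small: RpL22-like took 2.16 ± 1.66% of the reads of RpL22 and RpL22-like in the libraries labelled Gsk3CA, and RpL10Aa took 0.354 ± 0.23% of its pair (mean ± SD, n = 3).

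Markers of some other tissues differed in the libraries labelled Gsk3CA, and those of the testis moved with these copies. The summed level of 16 testis genes was 353, 381 and 92.1 CPM where the label says Gsk3CA. It was 35.8, 34.4 and 87.0 CPM in Mef2>+, 31.0, 21.3 and 43.7 CPM in Mef2>Deaf1, 16.04, 18.0 and 25.7 CPM in Mef2>whiteRNAi and 30.1, 28.8 and 28.9 CPM in Mef2>Deaf1RNAi. None of the 16 genes was at 0 in the libraries labelled Gsk3CA, and up to 8 were at 0 in a library of the other genotypes. The summed level of 7 midgut genes was 2.002 to 6.96 CPM, against 96.7 to 358.6 CPM in Mef2>+, and that of 3 hemocyte genes 414 to 506 CPM against 657 to 949 CPM, with none of these genes at 0. Other lists overlapped Mef2>+. Fat body genes stood at 1003.5 to 6308 CPM against 2516 to 6875 CPM. Salivary gland genes stood at 10.4 to 87.6 CPM against 11.5 to 113 CPM, and neuron and glia genes at 21.6 to 45.6 CPM against 23.9 to 47.0 CPM. The part of testis or other RNA in the levels of the minor copies and of the other members was not tested. With replicates 1 and 2 of the libraries labelled Gsk3CA both left out, a setting added once the data had been seen, no member passed with edgeR, with 14 members and 19.2% of all genes at an unadjusted p under 0.05, and the median of the members tested was −0.18, against −0.30 with all 3 libraries.

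**Figure D4:**
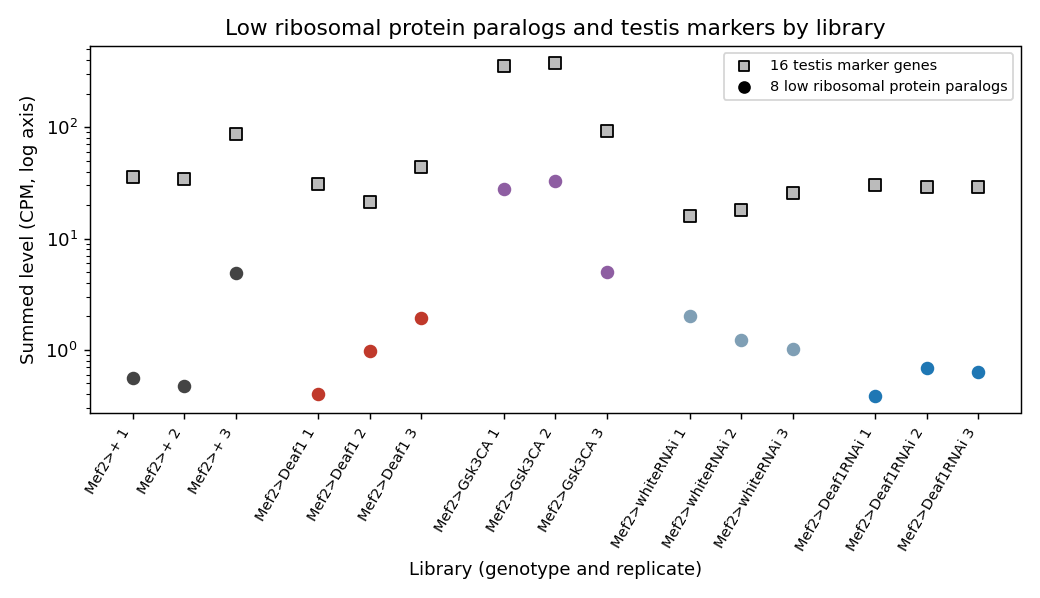
Summed CPM (log axis) of the 8 ribosomal protein genes below 10 CPM (circles, coloured by genotype) and of 16 testis marker genes (grey squares) in each of the 15 libraries. Replicates 1 and 2 of the libraries labelled Gsk3CA are highest in both sums, at 28.0 and 32.8 CPM for the minor copies and 353 and 381 CPM for the testis genes.

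Ribosomal protein genes whose symbols the rule leaves out, 2 of which were tested, were set beside the members. The gene sta, which encodes the small subunit protein RpSA, had log2 fold changes of −0.62 in Mef2>whiteRNAi (adjusted p = 0.0017 with edgeR), −0.35 in the libraries labelled Gsk3CA (adjusted p = 0.026) and −0.32 in Mef2>Deaf1 (adjusted p = 0.034), each against Mef2>+. Rack1, a signalling scaffold bound to the small subunit, fell by 0.43 and 0.29 on the log2 scale in the first 2 (adjusted p = 0.0073 and 0.047 with edgeR). Neither was called between Mef2>Deaf1RNAi and Mef2>whiteRNAi.

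Of 6 elongation factor genes tested, 4 were lower and none higher in Mef2>whiteRNAi than in Mef2>+, 3 were lower in the libraries labelled Gsk3CA, and 2 were lower and 1 higher in Mef2>Deaf1. Of all genes tested, 10.2, 8.87 and 7.38% were lower in the same order. Ef1alpha48D, which delivers aminoacyl tRNA, had log2 fold changes of −0.52 (adjusted p = 0.0060 with edgeR), −0.36 (adjusted p = 0.038) and −0.36 (adjusted p = 0.037) in that order. Ef1gamma, a subunit of its exchange factor, fell by 0.50 in Mef2>whiteRNAi (adjusted p = 0.0047 with edgeR) and by 0.32 in the libraries labelled Gsk3CA (adjusted p = 0.039). Ef1beta, the exchange subunit, rose by 0.45 in Mef2>Deaf1 (adjusted p = 0.0038 with edgeR). No elongation factor passed between Mef2>Deaf1RNAi and Mef2>whiteRNAi, where their median was 0.13 on the log2 scale.

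Of the genes of ribosome biogenesis and ribosomal RNA synthesis 25 were tested. In Mef2>whiteRNAi 3 were lower than in Mef2>+ and none was higher, a share near the 10.2% of all genes, with a median of −0.11 on the log2 scale, and they included dm, the Drosophila Myc gene (−1.07, SE 0.25, adjusted p = 0.013 with edgeR), and bys (−0.34, adjusted p = 0.038). In the libraries labelled Gsk3CA 10 were lower, where 8.87% of all genes were, with a median of −0.33, led by Nop60B, which encodes the pseudouridine synthase of ribosomal RNA (−0.64, adjusted p = 0.0049 with edgeR), and the nucleolar protein gene Nop56 (−0.58, adjusted p = 0.0035). In Mef2>Deaf1 2 were lower, the nucleostemin family gene ns3 (−0.41, adjusted p = 0.013 with edgeR) and Nop60B (−0.39, adjusted p = 0.037), a share near the 7.38% of all genes, with a median of −0.11.

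Between Mef2>Deaf1RNAi and Mef2>whiteRNAi 5 of the 25 were lower and 1 was higher, where 3.33% of all genes were lower and 5.48% higher. The median of the 25 was −0.27 on the log2 scale. The higher gene was dm (1.04, SE 0.25, adjusted p = 0.026 with edgeR), and of the 5 lower genes nop5 had the largest fall (−0.51, adjusted p = 0.019), which encodes a core protein of the small nucleolar ribonucleoproteins. Whether the biogenesis genes and the members differ in their response was not tested.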

How the data were processed

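Total RNA from filleted larvae was prepared with a stranded mRNA kit and sequenced as paired reads. Per the labels, the authors used CASAVA 1.7, STAR and HTSeq. The deposited values are whole-number counts of reads per gene symbol, not normalized, from reads mapped to the BDGP5 build. The strand setting of the counting was not given in the sources used here, so reads of a member and of an overlapping antisense gene (25 members in BDGP6) may not be separable, and exons shared on the same strand (10 members) can lose reads. Entries on no gene (3.36 to 6.75%) and multiply aligned reads (2.53 to 5.68%) were left out of library sizes.

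Counts were scaled by TMM and tested with edgeR 4.0.16 (R 4.3.3; quasi-likelihood, 1 mean per genotype, all 15 libraries, filterByExpr, Benjamini-Hochberg adjustment over 10930 genes, two-sided, adjusted p under 0.05). Alternatives were limma voom (limma 3.58.1), DESeq2 1.42.0, other scalings and filters, a replicate block and leaving out each library. Figures used matplotlib. Symbols were matched to the BDGP6 annotation for exon lengths, chromosome arms and overlaps. All 92 members matched, 2 of them by synonym, as did 97.7% of all symbols. RpL37a and RpL37A are different genes. Single genes were named by a rule: every member called where 10 or fewer were called in a direction, otherwise the 5 with the largest change, both copies of duplicated genes, the 5 highest and 5 lowest per exon length, the targeted genes, and at most 2 called genes of each accompanying list. A gene that the rule takes is not reported here. The members, lists and rules were chosen with earlier results of these data known.

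No 2 libraries of a genotype agreed within sampling noise (chi-square per degree of freedom at least 5.51). Same-numbered libraries of Mef2>whiteRNAi and Mef2>+ deviated together (correlations 0.269 to 0.541 over genes), at most a hint of pairing from the data. Of these libraries 3 of 6 correlated best with their own number. The replicate block there called 76 members against 83, with the share of all genes not given. Which libraries shared a lane was not given.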

Additional observations from a re-analysis of the deposited data

How the results depend on the processing

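Against 83 members called between the 2 controls, fitting only the libraries compared gave 47, and dropping each library in turn left 60 to 80. For Mef2>Deaf1 against Mef2>+ (8 members) the count was 15 with RLE factors, 0 with library totals, 1 without the filter on low counts, 30 with at least 10 counts in every library, 56 with DESeq2, 1 with the replicate block, 4 with only the libraries compared, 0 to 1 on leaving out 1 library, and 19 with the control exchanged. For the libraries labelled Gsk3CA (57 members, RpL22-like included) it was 24, 5, 33 and 22 under the first 4 of these, 26 with the replicate block, 0 with only the libraries compared, 7 to 67 on leaving out 1 library, 15 with the control exchanged, and 0 without replicates 1 and 2. RLE factors turned the 567 higher and 969 lower of all genes into 759 and 543. For Mef2>Deaf1RNAi (0 members) it was 1 with library totals, 6 with DESeq2, 70 with the control exchanged, and 0 on leaving out any library and with the replicate block. Except where all genes are counted in the text, how many of them passed under each setting is not given. These counts alone therefore cannot separate a change in the members from a change in all genes.

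With the control exchanged, 10 of the fold changes of named members changed sign. In Mef2>Deaf1 the log2 fold changes became 0.10 for RpLP2, 0.19 for RpL3, 0.13 for RpL24, 0.31 for RpL23A, 0.21 for RpL13, 0.29 for RpS24 and 0.17 for RpL35. In the libraries labelled Gsk3CA they became 0.083 for RpL17, 0.045 for RpS9 and 0.0039 for RpS16. Of the other alternatives for named members, 180 kept the call and 97 lost it with the same sign. These include 6 that kept and 10 that lost the call of RpL22-like. That gene entered the test only through the libraries labelled Gsk3CA and is not counted as a result. The causes were not tested.

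The correlation of same-numbered libraries ran from −0.27 to 0.018 in the Deaf1 RNAi comparison and from −0.12 to 0.12 in that of Deaf1 overexpression. It ran from −0.77 to −0.58 for the libraries labelled Gsk3CA. In these comparisons at most 1 of 6 libraries correlated best with its own number. With 3 libraries per genotype a single outlying library can set such correlations, so they cannot decide whether samples were paired. With 3 libraries per genotype, small differences in single members are at the limit of the test, and at the depth used the members below 10 CPM rest on few reads.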
